A study of Mus musculus with 6 samples.

Results

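The expression of 10 genes of the mesenchymal cytoskeleton and its calcium-binding and membrane-associated partners (Vim, Acta2, Tagln, Tpm1, Tpm2, S100a4, S100a6, Anxa2, Lgals1 and Emp1) was examined in 6 clones of undifferentiated mouse iPSCs. The genes were chosen by their signals in these same arrays, because most of them were lower in one of the 2 groups of clones, so the differences between the groups, and the intervals and calls of the fit that go with them, describe the choice and are not evidence for it. Every probe set that the array annotation assigns to one of these genes alone was taken, which gave 24 probe sets of the 45037 analysed, and 10 of the 18193 genes that have at least 1 such probe set. The (+)/(+) group (clones 4, 5 and 6) received 3i while fibroblasts were being reprogrammed and again while the clones were maintained, whereas the (−)/(+) group (clones 1, 2 and 3) received 3i only after the colonies had been isolated. The mixture named 3i contains CHIR99021, an inhibitor of GSK3, PD184352, an inhibitor of MEK, and SU5402, an inhibitor of the FGF receptor. All 6 clones were derived from embryonic fibroblasts of Nanog-GFP transgenic mice by retroviral transduction of Oct3/4, Sox2, Klf4 and c-Myc together with dsRed, and were grown on SNL feeder cells, a fibroblast line arrested with mitomycin C. Each line was a single clone and was measured on 1 Affymetrix array, so n = 3 clones in each group throughout. Whether feeder cells were removed before RNA was taken for the arrays, and whether the arrays of both groups were processed together, could not be learned from the sources used here, and any processing batch cannot be told apart from the groups.

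Vimentin forms the intermediate filaments of fibroblasts and other mesenchymal cells. Smooth muscle actin, transgelin and the tropomyosins belong to contractile actin filaments, and many of their genes are activated by SRF and its cofactors of the myocardin-related family through a DNA element named the CArG box. S100 proteins and annexins bind calcium and attach to membranes or to the cytoskeleton. When fibroblasts are reprogrammed, this program is normally switched off in a mesenchymal-to-epithelial transition, and keratin filaments of simple epithelia appear.

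The arrays had been scaled by the authors to one trimmed mean signal, and their median signals were between 64.1 and 70.2 for (+)/(+) clones, against 74.3 to 75.7 for (−)/(+) clones. The 3′ to 5′ signal ratio of Gapdh, a sign of RNA integrity, was between 0.82 and 0.87 on all 6 arrays. That of Actb was further from 1, between 1.56 in clone 4 and 1.77 in clone 6, both of the (+)/(+) group. Differences are given on the log2(signal + 16) scale, (+)/(+) minus (−)/(+), which understates the change of low signals. The brighter part of the array, 22518 probe sets whose mean exceeded that of the median probe set, was tested with limma, and the median difference over all of them was -0.05. Of the markers that define pluripotent stem cells, 9 of 9 were measured above that filter, and their summed signal was between 113888 and 118523 in (+)/(+) clones, against 100034 to 106906 in (−)/(+) clones. In this list 1 gene, Fbxo15, passed the test as higher in (+)/(+) clones and 0 as lower. Fbxo15 had 20844 ± 1082 in (+)/(+) clones and 13486 ± 1848 in (−)/(+) clones, so the difference between the sums leans on this gene. Of the 9 differences 4 were negative, among them Tfcp2l1 (-0.43), and the median was 0.10. Over all tested genes, with 1 probe set each, 1.55% passed as higher and 1.41% as lower.

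Promoter sequences from RefSeq (GRCm38.p6, from 250 bases before to 50 bases after the annotated start) were found for 8 of the 10 genes, in 9 windows. The windows of 5 genes whose groups did not overlap are shown, since they include the neighbours S100a4 and S100a6 and differ in the motifs they hold. Capitals mark the TATA box letters TATAAA and the AP-1 letters TGAGTCA or TGACTCA, each searched on both strands.
Vim promoter, chr2:13574061-13574360, + strand: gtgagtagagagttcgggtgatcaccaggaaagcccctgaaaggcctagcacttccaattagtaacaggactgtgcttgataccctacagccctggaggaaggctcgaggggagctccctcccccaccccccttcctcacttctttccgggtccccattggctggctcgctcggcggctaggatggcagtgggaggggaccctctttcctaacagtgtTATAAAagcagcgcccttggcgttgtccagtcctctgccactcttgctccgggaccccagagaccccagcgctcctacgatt
S100a4 promoter, chr3:90603520-90603819, + strand: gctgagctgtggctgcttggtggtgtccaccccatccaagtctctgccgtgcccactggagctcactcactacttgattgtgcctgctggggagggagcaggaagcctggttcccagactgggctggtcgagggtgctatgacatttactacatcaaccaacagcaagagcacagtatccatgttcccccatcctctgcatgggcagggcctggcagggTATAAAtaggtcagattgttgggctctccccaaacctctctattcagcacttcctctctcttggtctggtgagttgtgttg
S100a6 promoter, chr3:90612644-90612943, + strand: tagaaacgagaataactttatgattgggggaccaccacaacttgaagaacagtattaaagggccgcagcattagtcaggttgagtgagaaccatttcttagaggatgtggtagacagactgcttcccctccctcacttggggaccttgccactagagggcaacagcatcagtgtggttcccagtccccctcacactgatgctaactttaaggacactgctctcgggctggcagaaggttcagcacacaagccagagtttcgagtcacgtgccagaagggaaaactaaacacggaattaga
Emp1 promoter, chr6:135362681-135362980, + strand: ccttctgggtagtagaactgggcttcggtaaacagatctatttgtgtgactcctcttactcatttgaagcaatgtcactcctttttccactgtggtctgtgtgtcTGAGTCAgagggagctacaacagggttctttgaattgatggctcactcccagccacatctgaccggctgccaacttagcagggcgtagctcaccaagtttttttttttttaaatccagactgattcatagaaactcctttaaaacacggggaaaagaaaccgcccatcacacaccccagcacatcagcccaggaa
Anxa2 promoter, chr9:69453433-69453732, + strand: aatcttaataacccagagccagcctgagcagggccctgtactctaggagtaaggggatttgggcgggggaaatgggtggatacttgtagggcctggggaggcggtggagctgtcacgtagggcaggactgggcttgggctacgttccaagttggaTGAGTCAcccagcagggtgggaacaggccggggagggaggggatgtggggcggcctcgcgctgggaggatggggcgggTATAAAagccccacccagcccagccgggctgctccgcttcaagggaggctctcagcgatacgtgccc
The letters TATAAA were found in the windows of Vim, 32 bases before the start, of S100a4, 31 bases before it, and of Anxa2, 17 bases before it. These were 3 of the 9 windows, and 13.6% of all 32851 mouse promoter windows of the same length hold these letters. An AP-1 motif was found in the windows of Emp1, 145 bases before the start, and Anxa2, 95 bases before it, which were 2 of 9 windows, against 5.20% of all. The letters GGAATG of the TEAD motif were found in 2 windows, those of Tpm1 and Acta2, against 14.7% of all windows, and the letters GGGCGG of the SP1 motif in 4, against 35.7%. The CArG box was searched in its strict form, CC and GG with only A or T in the stretch between them, and was found so in 0 of the 9 windows, against 1.63% of all windows. With up to 1 mismatch it was found in 3 windows, those of Acta2, Tpm1 and 1 of Emp1, against 21.1% of all windows. The S100a6 window held none of the searched motifs on either strand. The letters TATAAA can also lie within a CArG box, and a match describes the sequence only.

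**Figure D1:**
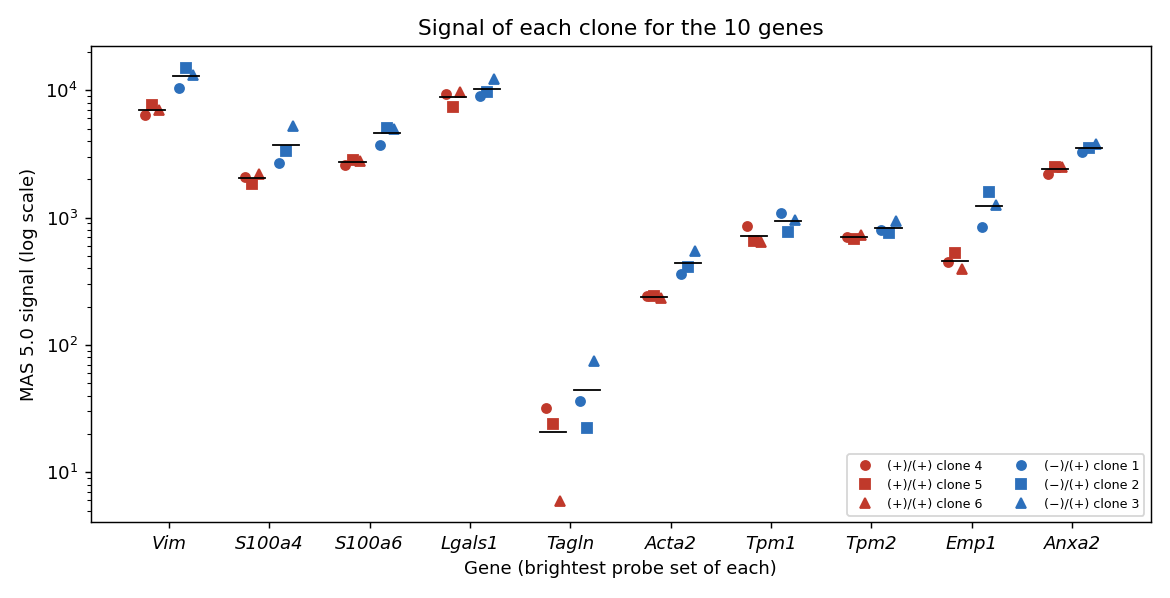
Signal of the probe set with the highest mean for each of the 10 genes, on a log axis, in the 3 (+)/(+) clones (left of each pair) and the 3 (−)/(+) clones (right). Each point is 1 clone and the bar is the group mean. For Vim, S100a4, S100a6, Acta2, Tpm2, Emp1 and Anxa2 all (+)/(+) clones sit below all (−)/(+) clones, and for Lgals1, Tagln and Tpm1 the groups overlap.

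Vim, the vimentin gene (chr2:13574311-13582826, GRCm38.p6), was measured by 3 probe sets, and in each of them all (+)/(+) clones lay below all (−)/(+) clones. The brightest, 1438118_x_at, gave signals of 6400, 7681 and 6957 for (+)/(+) clones 4, 5 and 6, against 10442, 15054 and 13195 for (−)/(+) clones 1, 2 and 3, the order of clones used throughout. The means were 7012 ± 642 in (+)/(+) clones and 12897 ± 2320.3 in (−)/(+) clones (SD, n = 3 each), a log2 difference of -0.87 with a 95% interval of -1.15 to -0.58. The highest (+)/(+) clone, clone 5, was thus below the lowest (−)/(+) clone, clone 1. Probe set 1450641_at gave 4125, 4987 and 4634 in (+)/(+) clones, against 8019, 10825 and 11300 in (−)/(+) clones, a log2 difference of -1.12 (95% interval -1.41 to -0.82). Probe set 1456292_a_at gave 3969 ± 289.9 in (+)/(+) clones and 7590.3 ± 1426 in (−)/(+) clones, a log2 difference of -0.92 (-1.21 to -0.63). The first and the last of these probe sets were designed on the same transcript accession, so they are not independent measurements. Vimentin RNA was thus lower but still abundant in (+)/(+) clones, whose means were 45.6% to 54.4% below the (−)/(+) means across the 3 probe sets.

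The genes of the contractile actin filament were less uniform. Acta2, which encodes smooth muscle actin and marks myofibroblasts as well as smooth muscle (chr19:34240336-34255585), had signals of 241, 243 and 235 in (+)/(+) clones, against 363, 408 and 549.6 in (−)/(+) clones. The (+)/(+) clones were nearly equal, with a mean of 239.8 ± 4.04 against 439.9 ± 97.6 in (−)/(+) clones, and the log2 difference was -0.81 (-1.19 to -0.43). This probe set, 1416454_s_at, is of the type whose probes can match several transcripts, so other actin transcripts may contribute to it. The other 2 probe sets of Acta2 had signals between 1.03 and 31.1 and were too dim to test.

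Tagln, which encodes transgelin, an actin-binding protein of smooth muscle and fibroblasts (chr9:45929628-45936058), was near the background of the array. Its signals were 32.2, 23.8 and 5.99 in (+)/(+) clones and 36.0, 22.1 and 74.8 in (−)/(+) clones. The groups overlapped, and the mean of 20.7 ± 13.4 in (+)/(+) clones and 44.3 ± 27.3 in (−)/(+) clones did not reach the filter for testing. The difference of -0.70 on the log2 scale rests on clone 3 and clone 6, since it was -0.35 without clone 3 and -0.37 without clone 6.

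Tropomyosins wind along the actin filament and control which other proteins can reach it. Tpm1 (chr9:67022590-67049672) was measured above the filter by 3 probe sets, and in 2 of them the groups did not overlap. The brightest, 1423049_a_at, gave 854.5, 654 and 640.3 in (+)/(+) clones, against 1076, 768 and 962 in (−)/(+) clones. Clone 4 of the (+)/(+) group was above clone 2 of the (−)/(+) group, so the groups overlapped, with a log2 difference of -0.38 (-0.74 to -0.02). Probe set 1423721_at gave 589.8 ± 67.8 in (+)/(+) clones and 832 ± 133 in (−)/(+) clones (-0.48, -0.81 to -0.14), without overlap. Probe set 1456623_at gave 106 ± 18.1 in (+)/(+) clones and 151 ± 6.80 in (−)/(+) clones (-0.46, -0.88 to -0.05), also without overlap. The other probe set, with means of 20.6 ± 13.3 in (+)/(+) clones and 22.9 ± 12.2 in (−)/(+) clones, was too dim to test.

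Tpm2 (chr4:43513726-43523583) was measured by 4 probe sets above the filter. The brightest, 1419738_a_at, gave 708, 683 and 726 in (+)/(+) clones, against 799, 752 and 932 in (−)/(+) clones. All (+)/(+) clones were below all (−)/(+) clones, but the difference was small, -0.22 (-0.50 to 0.06), and it was -0.13 without clone 3 and -0.06 when the arrays were scaled to a common median. The other probe sets ranged more widely: 1425028_a_at gave -0.39 (-0.70 to -0.07), 1449577_x_at, with signals of 67.0, 52.4 and 59.1 in (+)/(+) clones against 114.7, 139.4 and 91.4 in (−)/(+) clones, gave -0.78 (-1.26 to -0.31), and 1419739_at gave -0.24 (-0.78 to 0.29) with overlapping groups. Probe sets of one gene can read different transcripts, and which tropomyosin isoforms these read was not determined.

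S100a4 and S100a6 lie close together in the S100 cluster of chromosome 3, at chr3:90603770-90606045 and chr3:90612894-90614414, with only S100a5 between them. S100a4, also named fibroblast-specific protein, binds non-muscle myosin. Its signals were 2100.4, 1839 and 2203 in (+)/(+) clones, against 2672, 3326 and 5229 in (−)/(+) clones. The groups did not overlap, and clone 3 stood well above the other (−)/(+) clones. The means were 2047 ± 188 in (+)/(+) clones and 3742 ± 1328 in (−)/(+) clones, a log2 difference of -0.81 (-1.26 to -0.36), which was -0.54 without clone 3.

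S100a6, calcyclin, is found in proliferating fibroblasts and epithelia. Its signals were 2588, 2824 and 2790.4 in (+)/(+) clones, against 3710.0, 5089 and 4949 in (−)/(+) clones. The groups did not overlap, and here clone 2 was the highest of the (−)/(+) clones and clone 3 was close behind. The log2 difference was -0.73 (-1.01 to -0.45). S100a5, which lies between both genes, was near background in both groups, with 47.0 ± 8.04 in (+)/(+) clones and 44.6 ± 10.8 in (−)/(+) clones, and was not tested. S100a3, on the other side of S100a4, had 5.75 ± 2.36 in (+)/(+) clones and 27.1 ± 17.3 in (−)/(+) clones, also below the filter. Its groups did not overlap, but only narrowly, with 7.91 in (+)/(+) clone 5 and 7.99 in (−)/(+) clone 1. The 20 expressed genes around the pair, between Hax1 and Cdc42se1, had log2 differences between -0.29 and 0.34 with a median of 0.00, and 10 of the 20 were negative. None of them was as far below 0 as S100a4 or S100a6.

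Anxa2, annexin A2, links membranes to actin and binds S100a10 in a complex at the plasma membrane (chr9:69453683-69491792). With probe set 1419091_a_at the signals were 2189, 2487 and 2483 in (+)/(+) clones, against 3269, 3519 and 3752 in (−)/(+) clones. These groups were tight and separate, at 2386 ± 171 in (+)/(+) clones and 3513 ± 242 in (−)/(+) clones, a log2 difference of -0.56 (-0.78 to -0.33). The dimmer 1437692_x_at gave 135, 212 and 26.6 in (+)/(+) clones, against 203, 215 and 140.4 in (−)/(+) clones, with overlapping groups (-0.81, -1.90 to 0.28). The partner S100a10 had 3360.2 ± 524 in (+)/(+) clones and 3890.3 ± 946 in (−)/(+) clones (log2 difference -0.19, limma adjusted p = 0.57), and its groups overlapped.

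Lgals1, galectin-1, a lectin secreted by stromal cells that binds β-galactosides (chr15:78926725-78930465), had overlapping groups in both of its probe sets. Its signals with 1455439_a_at were 9301, 7357 and 9721 in (+)/(+) clones, against 9062, 9595 and 12178 in (−)/(+) clones. Clones 4 and 6 of the (+)/(+) group lay above clone 1 of the (−)/(+) group, and clone 6 also above clone 2. The log2 difference was -0.22 (-0.52 to 0.07), and -0.10 both without clone 3 and without clone 5. The other probe set, 1419573_a_at, gave 4776, 3586 and 4959 in (+)/(+) clones, against 4561, 5032 and 6362 in (−)/(+) clones (-0.26, -0.59 to 0.07).

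Emp1, epithelial membrane protein 1, is a tetraspan protein of the PMP22 family (chr6:135362550-135383173). It had the largest difference of the 10 genes when each was read by its brightest probe set. With the probe sets of each gene averaged, Vim (-0.97), S100a4 (-0.81), S100a6 (-0.73) and the dim Tagln (-0.70) came before Emp1 (-0.66). The brightest probe set of Emp1 gave 448, 525 and 396 in (+)/(+) clones, against 838.5, 1577 and 1249 in (−)/(+) clones. The highest (+)/(+) clone was below the lowest (−)/(+) clone by a wide margin, and clone 2 was the highest of all. The means were 457 ± 64.9 in (+)/(+) clones and 1222 ± 370.0 in (−)/(+) clones, a log2 difference of -1.35 (-1.82 to -0.89), so the (+)/(+) mean was 62.6% below the (−)/(+) mean. The other probe set of Emp1, with 25.5 ± 23.1 in (+)/(+) clones and 20.8 ± 5.45 in (−)/(+) clones, was too dim to test. The 20 expressed genes around Emp1 on chromosome 6, from Rhno1 to Ldhb, lay 0.15 above the median of all clones in clone 2, while Emp1 itself lay 1.23 above it there. Their median log2 difference between the groups was -0.10, and the part of this shift of the neighbourhood in the value of Emp1 was not tested.

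**Figure D2:**
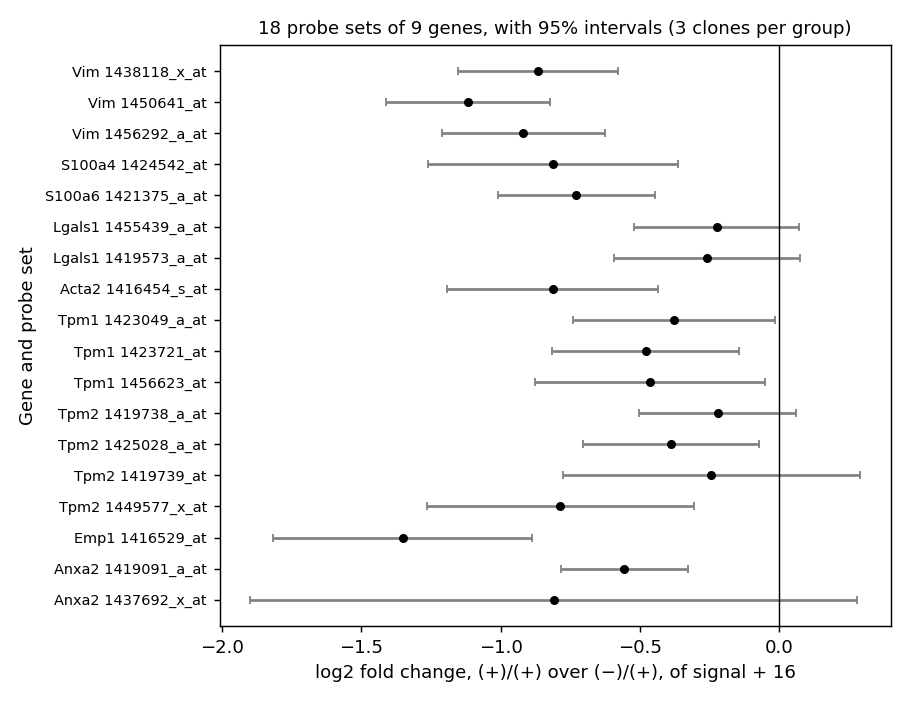
Difference in log2(signal + 16), (+)/(+) minus (−)/(+), with its 95% interval, for the 18 probe sets above the filter. They stand for 9 of the 10 genes, all but Tagln. All 18 differences lie below 0, from -0.22 for Tpm2 and Lgals1 to -1.35 for Emp1.

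Over all 24 probe sets, 18 passed the filter on low signals, standing for 9 of the 10 genes, and 6 did not. Among the 18, all (+)/(+) clones lay below all (−)/(+) clones in 13, the groups overlapped in 5, and in 0 did all (+)/(+) clones lie above. Over all tested probe sets, 16.6% had all (+)/(+) clones below all (−)/(+) clones and 10.5% had them all above. With 1 probe set per gene, 7 of 9 genes lay lower without overlap, where the share over all 11177 tested genes was 15.8%. The limma fit across all probe sets called 7 of the 18 lower in (+)/(+) clones (all 3 of Vim and 1 each of S100a6, Acta2, Emp1 and Anxa2) and 0 higher, where 1.77% of all tested probe sets were called lower and 1.35% higher. The median log2 difference was -0.73 over the 9 genes, against -0.05 over all tested genes. As the genes were chosen for this contrast, these counts describe the choice and nothing is read from them. S100a4, whose difference was of the same size as that of Acta2, was not among the calls, and its SD on the log2 scale was 0.13 in (+)/(+) clones and 0.49 in (−)/(+) clones. The count of calls depended on single clones, as it was 8 without clone 1, 3 without clone 3, 4 without clone 4, 4 without clone 5 and 1 without clone 6, the last being Vim.

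The clones of one group also differed from each other. The choice was made on these same arrays, and whether groups separate depends on the spread within them, so the spread is likewise a description. The SD on the log2 scale was larger in (−)/(+) than in (+)/(+) clones for 8 of the 9 genes, all but Anxa2, although by little for Lgals1 (0.22 in (+)/(+) clones and 0.23 in (−)/(+) clones) and Tpm1 (0.23 in (+)/(+) clones and 0.24 in (−)/(+) clones), and the same held for 55.4% of all tested genes. The median SD of the 9 genes was 0.13 in (+)/(+) clones and 0.25 in (−)/(+) clones, against 0.15 and 0.17 in the same groups over all tested genes. This difference in spread was not tested.

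**Figure D3:**
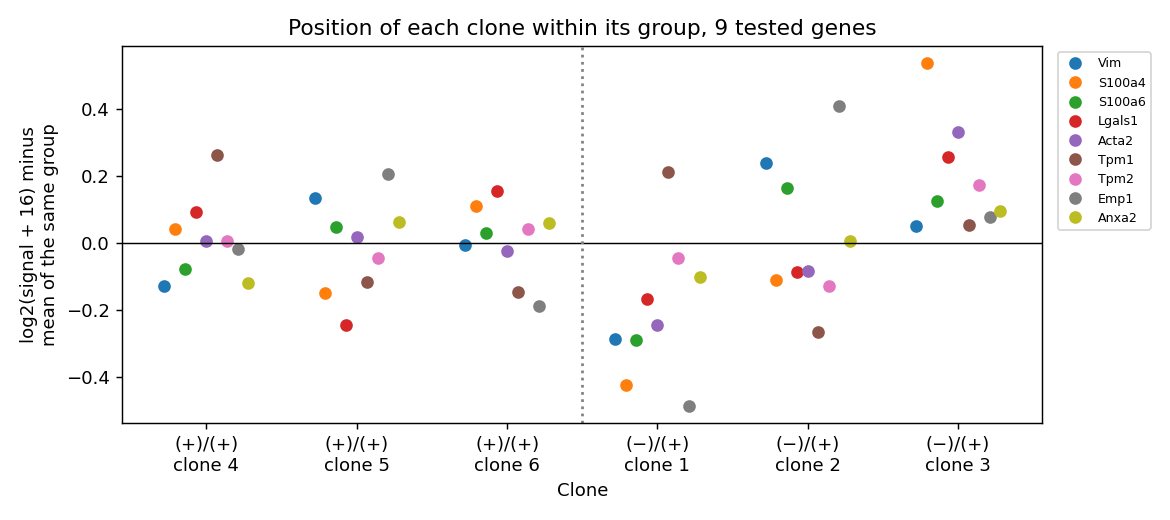
Deviation of each clone from the mean of its own group, on the log2(signal + 16) scale, for the 9 genes measured above the filter (1 colour each), with the (+)/(+) clones left of the dotted line and the (−)/(+) clones right of it. Clone 1 was the lowest of its group in 7 of 9 genes and clone 3 in 0.

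Within the (−)/(+) group, clone 1 was the lowest in 7 of the 9 genes (all but Tpm1 and Tpm2), while over all tested genes it was the lowest in 37.8%. Clone 3 was the lowest in 0 of 9, against 25.4% of all tested genes. It was the highest in 5 (S100a4, Lgals1, Acta2, Tpm2 and Anxa2), against 29.8% of all tested genes. Clone 2 was the highest for Vim, S100a6 and Emp1, and clone 1 for Tpm1. The median deviation from the group mean was -0.25 in clone 1, -0.08 in clone 2 and 0.12 in clone 3. In the (+)/(+) group, clone 5 was the highest in 5 of 9 genes (Vim, S100a6, Acta2, Emp1 and Anxa2), clone 6 in 3 and clone 4 in 1, while clones 4, 5 and 6 were each the lowest in 3, and their median deviations were between 0.01 and 0.03. Over all tested genes clone 5 was the highest of its group in 39.5%. Clone 1, the lowest (−)/(+) clone in most of these genes, was still above every (+)/(+) clone for Vim, S100a4, S100a6, Acta2, Emp1 and Anxa2.

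Markers of fibroblasts, which the feeder cells also express, were examined beside these genes. Of the 25 markers listed, 24 were measured and 21 tested, of which 8 passed the test as lower in (+)/(+) clones (Col1a2, Col3a1, Col5a1, Col5a2, Sparc, Bgn, Lox and Timp3) and 1 as higher, Ccn2, a secreted matrix-associated protein (log2 difference 0.69, limma adjusted p = 0.014). Their median log2 difference was -0.52, and the groups did not overlap in 14 that were lower and 1 that was higher in (+)/(+) clones. Over all tested genes, 1.41% were called lower and 1.55% higher, and 15.8% lay lower and 10.5% higher without overlap. The summed signal of the 24 measured markers was between 18542 and 21633 in (+)/(+) clones, lowest in clone 4. It was 23113 to 27384 in (−)/(+) clones, highest in clone 3. The largest parts of this sum were Fn1 and Ccn2. Fn1 had 7443 ± 837 in (+)/(+) clones and 9808 ± 975 in (−)/(+) clones. Ccn2, which was called higher, had 6431 ± 496 in (+)/(+) clones and 3980 ± 495 in (−)/(+) clones, so it narrows the difference between the sums. Among the defining markers, Col1a1 was below the filter, with 42.3 ± 4.33 in (+)/(+) clones and 96.0 ± 8.50 in (−)/(+) clones, as were Lum and Twist2, while Col1a2 had 573 ± 114 in (+)/(+) clones and 1746 ± 330 in (−)/(+) clones. The part of fibroblasts or feeder cells in the values of the 10 genes was not tested. In RNA of whole cultures, fewer cells of one type and less RNA per cell cannot be told apart. Markers of smooth muscle were low, since 5 of 7 were below the filter, among them Myh11 with 26.6 ± 14.8 in (+)/(+) clones and 34.6 ± 5.28 in (−)/(+) clones and Cnn1 with 9.41 ± 5.17 in (+)/(+) clones and 20.6 ± 18.9 in (−)/(+) clones. Their summed signal was 369 to 483 in (+)/(+) clones and 367 to 426 in (−)/(+) clones, and 0 of the 2 tested genes were called, Des (222 ± 49.4 in (+)/(+) clones and 149 ± 32.8 in (−)/(+) clones, 0.52, limma adjusted p = 0.20) and Smtn (-0.29, limma adjusted p = 0.48). The groups overlapped in both. Des was the brightest smooth muscle marker and a large part of their summed signal, so that sum leans on 1 gene with the higher mean in (+)/(+) clones.

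The relatives of the 10 genes were then examined in lists of their families and of the actomyosin genes around them. Of 89 genes listed, 83 were measured and 57 tested, and the limma fit called 1 lower in (+)/(+) clones, Cald1, and 0 higher. At an unadjusted p under 0.05 there were 17 lower and 5 higher. All (+)/(+) clones lay below all (−)/(+) clones in 17 of the 57 (29.8%, against 15.8% of all tested genes) and above in 5 (8.77%, against 10.5%), and the median log2 difference was -0.17. The share of genes called over all tested genes was 1.41% lower and 1.55% higher.

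Cald1 encodes caldesmon, which binds actin, tropomyosin and myosin. Its signals were 2362, 2791 and 2493 in (+)/(+) clones, against 3248, 4020.2 and 3714 in (−)/(+) clones. The groups did not overlap, and the log2 difference was -0.52 ± 0.11 (SE), with a limma adjusted p of 0.041, which was between 0.022 and 0.48 over the alternatives and was 0.091, 0.13, 0.10, 0.070 and 0.16 without clones 2, 3, 4, 5 and 6. Of the other 4 probe sets of Cald1, 1 gave -0.49 without overlap (limma adjusted p = 0.064), 1 gave -0.17 with overlapping groups, and 2 with overlapping groups (-0.61 and 0.75) were too dim to test. The 20 expressed genes around Cald1 on chromosome 6, from Ube2h to Fmc1, were 0.28 above the median of all clones in clone 2, where Cald1 was 0.42 above it. Their median log2 difference between the groups was -0.12. Of the 20, 14 were negative and 3 were as low as Cald1 or lower. The part of the neighbourhood in the value of Cald1 was not tested.

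**Figure D4:**
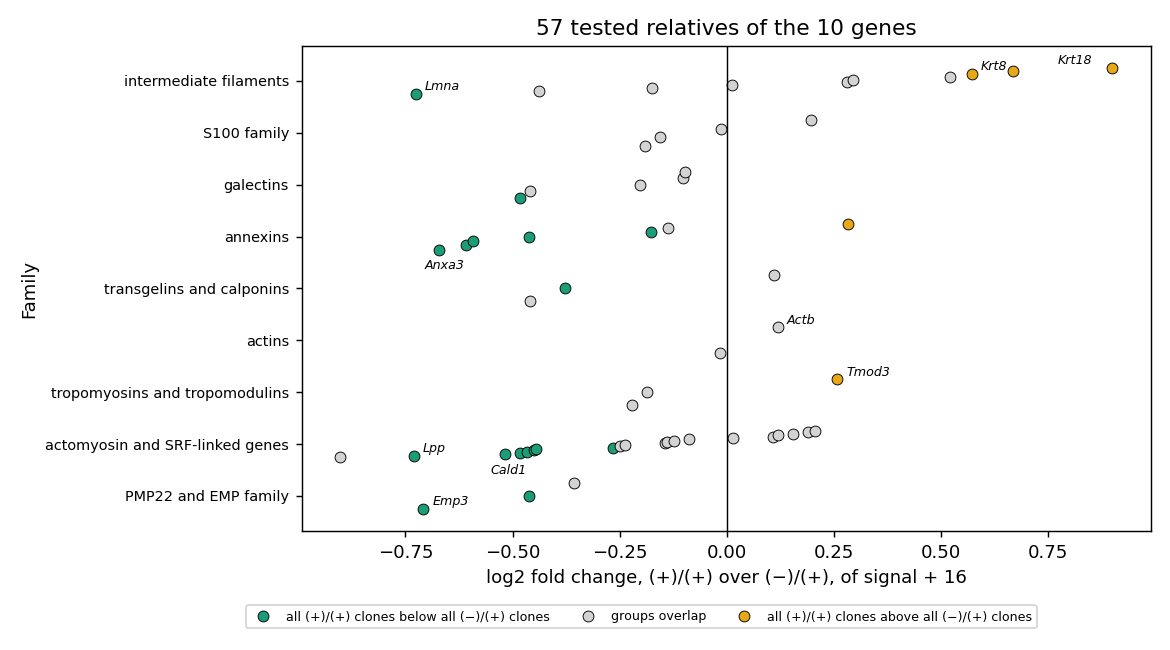
Difference in log2(signal + 16), (+)/(+) minus (−)/(+), for the 57 tested relatives, by list. Green points are genes with all (+)/(+) clones below all (−)/(+) clones, yellow points those with all above, and grey points those whose groups overlap. The annexins lie mostly below 0 and the intermediate filaments mostly above it, while Actb and Actg1 lie near 0.

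The intermediate filaments other than vimentin were mostly on the other side of 0. Of 10 tested, 0 were called, all (+)/(+) clones were lower in 1 and higher in 3, and the median was 0.29. Over all tested genes, 15.8% lay lower and 10.5% higher without overlap. Krt18, which pairs with Krt8 in epithelial filaments, gave signals of 972, 674 and 571 in (+)/(+) clones, against 522, 259.6 and 399.8 in (−)/(+) clones (log2 difference 0.90, limma adjusted p = 0.079). Krt8, which was singled out after its values were seen, gave 400.3 ± 77.6 in (+)/(+) clones and 261 ± 12.7 in (−)/(+) clones (0.57, limma adjusted p = 0.091). The nuclear lamin Lmna, which is low in pluripotent cells, had 315 ± 49.8 in (+)/(+) clones and 536 ± 126 in (−)/(+) clones (-0.73, limma adjusted p = 0.066), whereas Lmnb1, the lamin of early embryonic cells, gave -0.17 with overlapping groups. The keratin Krt19 was dim, at 42.2 ± 18.6 in (+)/(+) clones and 104 ± 34.8 in (−)/(+) clones, lower without overlap (-1.06), and was not tested. In the list of 8 epithelial markers, which holds Krt8 and Krt18, 0 were called in either direction and 4 of the differences were negative. All (+)/(+) clones were higher for Krt8, Krt18 and Cldn4 (0.30), a claudin of tight junctions, while Cdh1, E-cadherin, gave 0.29 and Epcam, an epithelial adhesion molecule, gave -0.32, both with overlapping groups. Without clone 1, Krt18 passed the test as higher and Lmna as lower.

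The annexins were the list with the highest share of genes that lay lower without overlap. Of 7 tested, all (+)/(+) clones were lower in 5 and higher in 1, with 0 called and a median of -0.46. The shares over all tested genes were 15.8% lower and 10.5% higher without overlap. Anxa1, which binds phospholipids and limits inflammation, had 2065, 2064 and 2188 in (+)/(+) clones, against 2511, 3235 and 3959 in (−)/(+) clones (-0.59, limma adjusted p = 0.061). Anxa5, known as a probe for exposed phosphatidylserine, gave 1061 ± 119 in (+)/(+) clones and 1474 ± 239 in (−)/(+) clones (-0.46, limma adjusted p = 0.10), and Anxa7 gave -0.18. Clone 1 was again the lowest (−)/(+) clone for Anxa1 and clone 3 the highest.

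Of the S100 family 4 other genes were tested, with 0 called, a median of -0.09 and overlapping groups in all 4. Over all tested genes, 1.41% were called lower and 1.55% higher, and 15.8% lay lower and 10.5% higher without overlap. The median over all tested genes was -0.05. Besides S100a10, S100a13 gave 498 ± 184 in (+)/(+) clones and 496 ± 164 in (−)/(+) clones, and S100a16 gave 350.3 ± 18.4 in (+)/(+) clones and 393 ± 43.9 in (−)/(+) clones. With only 4 genes and these shares, nothing is read from the overlap in these 4. Whether they differ from S100a4 and S100a6 was not tested. The dim S100a3 was lower without overlap (-0.90). Of 5 galectins tested, Lgals8 had 305 ± 26.1 in (+)/(+) clones and 434 ± 51.6 in (−)/(+) clones without overlap (-0.48, limma adjusted p = 0.10), and Lgals3 (-0.46) and Lgals7 (-0.10) had overlapping groups. All 3 tested relatives of Emp1 had negative differences, with Emp3 at -0.71, Pmp22, a component of peripheral myelin, at -0.46 and Emp2 at -0.36. The groups did not overlap for Emp3 and Pmp22 and overlapped for Emp2, and 0 of the 3 were called.

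The cytoplasmic actins, which every cell uses, were among the brightest probe sets. Actb had 21893 ± 1908 in (+)/(+) clones and 20149 ± 1523 in (−)/(+) clones (0.12, limma adjusted p = 0.47), and Actg1 had 22902 ± 1017 in (+)/(+) clones and 23154 ± 1337 in (−)/(+) clones (-0.02, limma adjusted p = 0.93). The groups overlapped in both, with 95% intervals of -0.08 to 0.31 for Actb and -0.18 to 0.15 for Actg1. Acta1, Actc1 and Actg2, the actins of striated and enteric muscle, were below the filter. The non-muscle tropomyosins Tpm3 (-0.22) and Tpm4 (-0.19) had overlapping groups, and Tmod3, which caps the pointed end of actin filaments, was higher in all (+)/(+) clones (0.26, limma adjusted p = 0.22). Of the transgelins and calponins, Cnn3 gave 0.11 and Tagln2 -0.46 with overlapping groups, and Cnn2 gave -0.38 without overlap (limma adjusted p = 0.19).

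In the list of actomyosin and SRF-linked genes, 20 were tested, all (+)/(+) clones were lower in 7 and higher in 0, and the median was -0.19. The shares over all tested genes were 15.8% lower and 10.5% higher without overlap. Besides Cald1, and singled out after their values were seen, Myh9, a non-muscle myosin heavy chain, had 3616 ± 521 in (+)/(+) clones and 4916 ± 182 in (−)/(+) clones (-0.45, limma adjusted p = 0.060), and Actn1, an actin crosslinker of stress fibres, had 2408 ± 206 in (+)/(+) clones and 3285 ± 299 in (−)/(+) clones (-0.44, limma adjusted p = 0.060). Myl12a (0.11), Myl12b (0.12) and Actn4 (-0.14), each brighter than Myh9 and Actn1, had overlapping groups. Srf itself, like its cofactors and the S100 neighbours above named after its values were seen, gave 409.8 ± 45.7 in (+)/(+) clones and 354 ± 47.8 in (−)/(+) clones (0.21, limma adjusted p = 0.47), with overlapping groups. Of its cofactors, Mkl1 gave -0.26 (limma adjusted p = 0.40) and Mkl2 -0.09 (limma adjusted p = 0.73). Without clone 1 the fit called 7 of the 57 relatives lower, namely Lmna, Lgals3, Anxa1, Cald1, Actn1, Lpp and Emp3, it called 1, Anxa3, without clone 2, and it called 0 without each of clones 3, 4, 5 and 6.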

How the data were processed

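RNA of 6 iPSC clones, 3 per group, was hybridised to 1-colour Affymetrix arrays. The authors deposited the MAS 5.0 signal intensity of each probe set on a linear scale, scaled per array to a common trimmed mean. After removal of 64 controls from 45101 probe sets, 34945 had 1 gene symbol in the platform annotation, 932 several and 9160 none, and only the first kind was named. Signals were taken as log2(signal + 16), and the 22518 probe sets whose mean exceeded the median probe set's were tested (limma 3.58.1 in R 4.3.3, lmFit and eBayes with trend, group as the only term). A probe set was called where its adjusted p (Benjamini-Hochberg) was under 0.05. The fit was tested on simulated data. A gene was represented by its brightest probe set, and 95% intervals came from the fit. The samples of a group are separate clones with 1 array each. A p-value thus weighs a difference against variation in which clone and array cannot be separated. The fit also moderates this variation over all tested probe sets, and 3 arrays per group limit the precision.

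The genes and the family lists were chosen with earlier results of these data known. The genes named are the 10 members, list genes that were called, otherwise the 3 with the highest mean signal in each list, and the 5 genes most correlated with the members. Marker genes, Krt19, the S100 neighbours and other genes outside this rule were named after their values were seen. Neighbours were the 20 nearest tested genes with a mean signal above 500 (10 on each side), placed by RefSeq. Alternatives were other pseudocounts, normalizations, filters and fits, and leaving out each clone. Some listed relatives and 1 listed marker were not analysed here. Tables and figures were made with Python 3.11.15, pandas 2.3.3 and matplotlib 3.10.9.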

Additional observations from a re-analysis of the deposited data

How the results depend on the processing

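No paired analysis was possible because no clone number occurs in both groups. Each of the 10 members kept a negative difference under every alternative run. The median over the 10 members, -0.71, was -0.59 with a common median, -0.53 when a gene's probe sets were averaged, which brings in the dim ones, and between -0.82 and -0.52 with 1 clone left out, the last without clone 3. Averaging with dim probe sets gave -0.23 for Acta2, -0.66 for Emp1 and -0.29 for Anxa2, and a common median gave -0.06 for Lgals1 and for Tpm2 and -0.22 for Tpm1. A common median moves the median of all tested probe sets to 0.10, against -0.05 without it, a shift of the whole scale to which the members' differences are relative, and it makes higher calls 79.4% of all calls in place of 43.4%, against 53.0% with quantile normalization and 56.6% with a mean signal above 500. Of all tested probe sets 398 were called lower and 305 higher. These counts were 238 and 917 with a common median, 120 and 101 with no filter on low signals, 178 and 87 under eBayes without trend, 1 and 0 with the methods' t-test after Benjamini-Hochberg adjustment and 2427 and 1572 without it. With a mean signal above 500, where fewer probe sets are tested, 165 were called lower, and with quantile normalization 255. Leaving out 1 clone gave 25 to 515 lower and 27 to 446 higher. Of the relatives, 1 was called lower and 0 higher. The lower count was 0 with a common median, with eBayes without trend, with the mean of all probe sets, with no filter and with the methods' t-test after adjustment, and 14 with that test unadjusted, and the higher count was 2 with a common median (Krt8 and Krt18) and 4 with the unadjusted t-test. With 1 clone left out these counts were 0 to 7 and 0 to 1. The 7 called member probe sets were 3 with eBayes without trend, 0 with the methods' t-test after adjustment and 1 to 8 with 1 clone left out. Except where stated by construction, the cause was not tested. Signals near the array's background, as for Tagln, limit what can be said of dim probe sets.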

Other observations

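The 5 genes outside the lists whose values over the 6 clones were most like the mean of the members (Pearson's r of 0.99 for each, among 11074 candidates, with the difference between the groups included and all points from the same 6 arrays) were Mapre2, Tada3, Ccnd2, Cdk6 and Spns1. Mapre2, which encodes a protein of microtubule plus ends, had 1275 ± 45.2 in (+)/(+) clones and 1956 ± 223 in (−)/(+) clones. Tada3, a subunit of histone acetyltransferase complexes, had 671 ± 24.8 in (+)/(+) clones and 1184 ± 231 in (−)/(+) clones. The cell cycle pair of Ccnd2, cyclin D2, and Cdk6, the kinase that D-type cyclins activate, was also found here. Ccnd2 had 418 ± 15.6 in (+)/(+) clones and 832 ± 193 in (−)/(+) clones, and Cdk6 had 245 ± 14.5 in (+)/(+) clones and 512 ± 93.0 in (−)/(+) clones. Spns1, a lysosomal transporter, had 352 ± 15.5 in (+)/(+) clones and 586 ± 70.9 in (−)/(+) clones. In all 5 the spread was larger in the (−)/(+) clones and clone 1 was the lowest and clone 3 the highest of that group. As these genes were picked for their likeness over the same 6 arrays, the likeness is a description.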
